A study of Mus musculus with 36 samples.

Results

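Primordial germ cells (PGCs) of male mouse fetuses of E13.5 (E13.5M) were compared between intrauterine hyperglycemia (IUHG) and control by RNA-seq. The comparison held 6 of the 36 libraries of the series, chosen by their labels, with 3 control and 3 IUHG libraries. All were labelled wild type (WT) and male. In both groups the cells carried an *Oct4-EGFP* transgene, a fluorescent reporter driven by a promoter active in germ cells, and were sorted from digested gonads by their green fluorescence. By the methods each library pooled the cells of many fetuses, so it does not show the spread between fetuses. Dams of the IUHG group received 120 mg/kg of streptozotocin (STZ), a toxin of pancreatic β-cells, at E3.5, and were kept as diabetic when blood glucose passed 14 mM at E6.5. The control libraries are labelled as control group, with no treatment named. Whether libraries shared dams or litters is not given in the sources used here, so p-values measure the spread between these libraries. Expression is given as TPM, an abundance that the authors corrected for transcript length and scaled to the same total in each library.

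Around E13.5 the germ cells of both sexes part ways. In a fetal testis, FGF and NODAL signals and the RNA-binding protein NANOS2 hold germ cells out of meiosis, retinoic acid is degraded by the surrounding somatic cells, and the cells arrest in mitosis while they begin to express genes of the piRNA pathway and of later sperm development. In a fetal ovary, BMP signals and retinoic acid induce *Stra8* and *Meiosin*, whose proteins switch on the meiotic genes. The comparison asks which genes of these programmes differ when the male germ cells developed in a hyperglycemic mother.

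The germ cell label was checked against its markers. *Dppa3*, a gene of the germline and early embryo, had 6661, 7001 and 7130.4 TPM in control and 5993, 5983 and 6087 TPM in IUHG libraries. *Dazl*, an RNA-binding protein gene that licenses germ cells for sexual differentiation, had 1131, 1274 and 1258 TPM and 1064, 1016 and 1163 TPM. *Ddx4*, the germ cell helicase also called Vasa, had 208, 220.2 and 211 TPM and 176, 175 and 195 TPM. Every library thus held these 3 germ cell markers above 170 TPM. The marker set also held *Nanos3*, *Dnd1*, *Kit*, *Ifitm3*, *Prdm1* and *Pou5f1*. These had log2 fold changes of -1.02, -0.71, 0.71, 0.402, 0.0416 and -0.16 and so went in both directions. *Eif2s3y*, a Y-linked gene, had 140.1, 171 and 156 TPM in control and 109, 109.8 and 106 TPM in IUHG libraries (log2 fold change -0.51, standard error 0.0697, limma adjusted p = 5.2e-04), and the X-linked *Xist* was below 1 TPM in all 6, at most 0.375 TPM. The Y-linked *Ddx3y*, *Uty* and *Kdm5d* had log2 fold changes of -0.0140, -0.404 and -0.128 (limma adjusted p = 0.94, 0.045 and 0.56). *Xist* does not tell the sexes apart here, as control female PGCs of the same day had 0.260 to 0.406 TPM. The 4 Y-linked genes do, with sums of 151, 183 and 167 TPM in control and 118, 120 and 116 TPM in IUHG libraries. In female PGCs of that day they summed to at most 0.0187 TPM. Aligned bases ranged from 6.89 to 7.67 gigabases in control and from 6.13 to 7.74 gigabases in IUHG libraries. Counts per gene are unknown.

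Transcripts of other cell types differed too. Of 14 markers of interstitial and Leydig cells, the steroid-producing cells of the testis, 8 were tested. All 8 had a log2 fold change below 0, with a median of -1.57. At limma adjusted p below 0.05 and any fold, 7 were lower (18% of all genes). The DEG threshold defined below was passed by 4 as lower (1.89% of all genes). The summed level of the 14 was 58.3, 41.4 and 57.04 TPM in control and 5.34, 9.50 and 5.55 TPM in IUHG libraries. *Insl3*, a hormone gene of Leydig cells, had 23.9, 11.8 and 21.2 TPM in control and 0, 1.05 and 0 TPM in IUHG libraries (log2 fold change -3.92, standard error 0.315, limma adjusted p = 2.3e-05). *Cyp11a1* and *Cyp17a1*, which encode steroid-synthesis enzymes, had means of 7.66 ± 1.77 and 7.74 ± 1.197 TPM (SD, n = 3) in control and 0.228 ± 0.214 and 0.2702 ± 0.395 TPM in IUHG libraries. The steroid enzyme gene *Hsd3b1* had 8.89, 6.21 and 6.19 TPM in control and 0.253, 1.75 and 0.0579 TPM in IUHG libraries. In a sorted bulk sample, fewer cells of a type and less RNA per cell cannot be told apart.

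Sertoli cell markers summed to 246, 229 and 235 TPM in control and 261, 218 and 182 TPM in IUHG libraries, with 1 of 11 tested members higher (*Nr0b1*) and 1 lower (*Clu*). Counts of members in this paragraph use the DEG threshold defined below, which 2.03% of all genes passed as higher and 1.89% as lower. The defining gene *Sox9* had 2.96, 2.55 and 2.37 TPM against 2.104, 2.62 and 2.22 TPM. *Foxl2*, the defining gene of pregranulosa cells, was below 1 TPM in all 6 libraries, and their 11 markers summed to 21.7, 28.5 and 24.4 TPM in control and 19.1, 20.6 and 17.6 TPM in IUHG, with 1 of 5 tested members higher (*Irx3*) and 1 lower (*Rspo1*). Of 9 endothelial markers 7 were below 1 TPM in every library, and the list summed to between 29.2 and 35.1 TPM. The 7 gonadal somatic markers summed to 19.7, 20.8 and 20.8 TPM and 15.6, 17.04 and 17.2 TPM, with no DEG. Blood markers were at 79.5 TPM in control library 1, at 5.47 and 7.38 TPM in the other control libraries and at 4.201, 4.08 and 3.83 TPM in IUHG. *Hba-x* and *Hbb-bh1* were listed at 0 throughout. Without control library 1, 276 genes were higher and 287 lower, against 294 and 273 with it. The part of these other cells in the results below was not tested beyond these values.

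A gene was called differentially expressed (DEG) when limma, fitted on log2(TPM + 1), gave an adjusted p below 0.01 with more than a 2-fold difference on that scale, on which folds of weakly expressed genes are compressed. Of 14473 genes with a mean of at least 1 TPM in either group, 294 were higher in IUHG (2.03%) and 273 lower (1.89%), or 567 in all (3.92%). All 567 had no overlap between the control and IUHG libraries, as had 47.1% of all genes tested. The median log2 fold change of all genes tested was -0.0228, and that of the 294 higher and 273 lower DEGs 1.27 and -1.27. The change exceeded a log2 value of 2 in 36 higher and 28 lower DEGs and of 3 in 14 and 3. Of the 294 higher DEGs, 89 had a control mean under 1 TPM, and of the 273 lower DEGs 87 had an IUHG mean under 1 TPM. These passed the filter only through the group where they are high. Of all 14473 genes tested, 745 had a control mean and 680 an IUHG mean under 1 TPM. The higher DEGs had a median of 2.16 TPM in control and 8.03 TPM in IUHG. For the lower DEGs the medians were 7.34 and 1.94 TPM. At adjusted p below 0.05 and any fold, 2206 genes were higher (15.2%) and 2607 lower (18%).

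**Figure D1:**
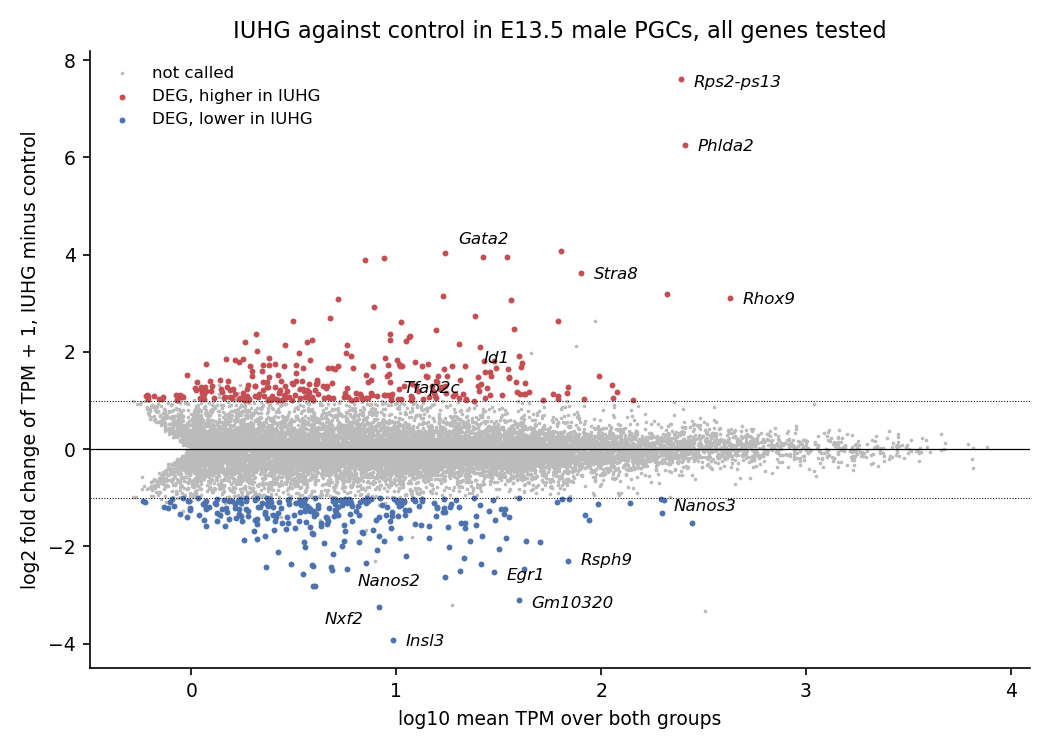
Each point is 1 of 14473 genes tested, with the log10 of its mean TPM over both groups on the x axis and its log2 fold change of TPM + 1 (IUHG minus control) on the y axis. Red marks the 294 DEGs higher and blue the 273 DEGs lower in IUHG, grey the other genes, and dotted lines a 2-fold change; *Rps2-ps13* and *Phlda2* lie above a log2 value of 6, and the lowest DEG is *Insl3*.

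The largest change was that of *Rps2-ps13* (ENSMUSG00000081684.5, chromosome X, 51987465 to 51988346; positions are as listed in the files, on mm39 by the methods), a copy of a ribosomal protein gene. It had 1.48, 1.65 and 1.36 TPM in control and 507, 466 and 494 TPM in IUHG libraries (log2 fold change 7.62, standard error 0.0709, limma adjusted p = 5.8e-12). *Rps13-ps1*, another such copy, had 6.43, 5.12 and 7.64 TPM and 117, 128 and 121 TPM (log2 fold change 4.07, standard error 0.114, limma adjusted p = 3.9e-08), while the copy *Rps24-ps3* fell from 288, 274 and 284 TPM to 116, 115 and 108 TPM (log2 fold change -1.31, standard error 0.0476, limma adjusted p = 1.9e-07). Such copies share near-identical sequence with expressed genes, so the assignment of their reads is uncertain. *Rps2-ps13* also went from 266 ± 7.28 to 3.43 ± 1.28 TPM (SD, n = 3) at E12.5, the opposite direction. Its log2 fold change was -5.85 in E16.5 females (limma adjusted p = 7.5e-06). In E13.5 females and E16.5 males it was 0.29 and 0.61 (limma adjusted p = 0.50 and 0.026). *Rps13-ps1* had -1.91 in E16.5 males and -3.02 in E16.5 females (limma adjusted p = 1.3e-04 and 0.0014). At E12.5 and in E13.5 females it had 0.19 and 0.83 (limma adjusted p = 0.66 and 0.16).

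Among protein-coding genes, *Phlda2* (ENSMUSG00000010760.6, chromosome 7, 143055282 to 143056278), an imprinted gene that restrains placental growth, had 3.97, 6.08 and 7.23 TPM in control and 521, 486 and 510.3 TPM in IUHG libraries (log2 fold change 6.26, standard error 0.150, limma adjusted p = 1.3e-08). The lowest IUHG library was thus far above the highest control library. *Sct* (ENSMUSG00000038580.14, chromosome 7, 140858244 to 140859046), which encodes the hormone secretin, had 2.59, 3.37 and 4.33 TPM and 66.6, 64.3 and 67.8 TPM (log2 fold change 3.94, standard error 0.1304, limma adjusted p = 1.2e-07). Other transcripts with the lowest p were *1700013H16Rik*, an X-linked gene that went from 5.59, 5.66 and 5.505 to 46.98, 41.1 and 40.98 TPM (log2 fold change 2.74, limma adjusted p = 8.5e-08), and ENSMUSG00000121779, which has no symbol and a log2 fold change of 3.07 (adjusted p = 1.2e-07 by limma). *Gm19486*, a predicted gene, had a log2 fold change of 4.03 (adjusted p = 1.1e-06 by limma).

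Of the lower genes, *Gm10320* had the lowest p, with 78.4, 67.6 and 70.6 TPM in control and 7.37, 7.38 and 7.77 TPM in IUHG libraries (log2 fold change -3.103, standard error 0.0781, limma adjusted p = 1.6e-08). *Polr2k* (ENSMUSG00000045996.13, chromosome 15, 36174156 to 36177156), a subunit shared by the nuclear RNA polymerases I, II and III, fell from 437, 406 and 396 TPM to 143, 149 and 141 TPM (log2 fold change -1.51, standard error 0.0505, limma adjusted p = 1.2e-07). *Nxf2* (ENSMUSG00000009941.11, chromosome X, 133845277 to 133865503), an X-linked mRNA export factor of male germ cells, fell from 15.9, 15.4 and 16.04 TPM to 0.7196, 0.854 and 0.697 TPM (log2 fold change -3.25, standard error 0.114, limma adjusted p = 1.8e-07). All 3 IUHG libraries had under 1 TPM of it. *Sdc4*, a cell-surface proteoglycan gene, fell from 280.5, 268 and 273 TPM to 136, 132 and 131 TPM (log2 fold change -1.04, standard error 0.0439, limma adjusted p = 4.9e-07).

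Genes of the *Rhox* cluster, homeobox genes on the X chromosome expressed in the reproductive tract, included a pair of the strongest changes. *Rhox6* (ENSMUSG00000006200.4, chromosome X, 36915787 to 36918734) had 43.6, 37.2 and 40.4 TPM in control and 377, 383 and 372 TPM in IUHG libraries (log2 fold change 3.195, standard error 0.0611, limma adjusted p = 2.9e-09). *Rhox9* (ENSMUSG00000068048.9, chromosome X, 36987974 to 36990647), its close relative with a role in germ cells, had 96.2, 81.8 and 84.7 TPM and 794, 763 and 728 TPM (log2 fold change 3.11, standard error 0.0642, limma adjusted p = 4.0e-09). The rest of the cluster was looked up after these values were seen. Of 25 *Rhox* genes tested, from base 36477457 to 37394905, 11 were DEGs higher in IUHG and 1 lower, against 2.03% and 1.89% of all genes, and their median log2 fold change was 0.95. The lower member was *Rhox10*, which is known for a role in forming spermatogonial stem cells, and it fell from 20.97, 25.96 and 30.3 TPM to 13.7, 9.55 and 10.3 TPM (log2 fold change -1.14, standard error 0.153, limma adjusted p = 5.0e-04). *Rhox5*, the founding member, had 741, 747 and 771 TPM and 1434, 1457 and 1388 TPM, a log2 fold change of 0.92 that missed the fold threshold (adjusted p = 4.1e-07 by limma). *Rhox13* rose from 9.39, 9.02 and 5.23 TPM to 28.3, 22.9 and 27.9 TPM (log2 fold change 1.65, limma adjusted p = 1.6e-04). The *Rhox2* and *Rhox4* copies are near identical, so reads may be split among them. Among the higher DEGs, *Rhox4a2*, *Rhox4c*, *Rhox4e* and *Rhox2f* had control means of 0.0528, 0.295, 0.9986 and 0.400 TPM. They passed the filter on low values only through the IUHG libraries. Without this filter 7 of 33 members were higher and 0 lower. Over the 13 alternatives 7 to 13 members were higher and 0 or 1 lower.

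Genes known to respond to BMP signals, which in the fetal ovary prepare germ cells for the female fate, held the highest share of higher DEGs of the lists below. Of 20 members tested of a list of 26, 10 were DEGs higher in IUHG and 0 lower, against 2.03% and 1.89% of all genes. At adjusted p below 0.05 and any fold, 12 were higher and 2 lower (15.2% and 18% of all genes). The median log2 fold change of the list was 1.05, or 0.71 without 2 genes listed at 0 in all control libraries, and that of all genes -0.0228. Of the 10, *Dlx3*, *Hand1*, *Cdx2* and *Gata3* had control means of 0, 0, 0.0159 and 0.306 TPM. They thus passed the filter on low values only through the IUHG libraries, where they are high. With FPKM, 7 members were higher. Without the filter, 10 of 26 were higher and the median of the list was 0.43. The list was chosen with earlier results of these data known, so its share is a description only.

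*Id1* (ENSMUSG00000042745.10, chromosome 2, 152578171 to 152579330), an inhibitor of basic helix-loop-helix factors and the classic target of SMAD1 and SMAD5, had 18.7, 18.1 and 19.5 TPM in control and 64.4, 62.5 and 61.5 TPM in IUHG libraries (log2 fold change 1.69, standard error 0.06302, limma adjusted p = 2.1e-07). Its relative *Id2* had 16.7, 24.1 and 14.7 TPM and 47.1, 51.7 and 59.8 TPM (log2 fold change 1.49, standard error 0.158, limma adjusted p = 1.3e-04). *Id3* missed the fold threshold at a log2 fold change of 0.98 (adjusted p = 2.7e-06 by limma). *Id4* went the other way, from 17.9, 16.4 and 16.1 to 10.99, 10.3 and 11.8 TPM, with a log2 fold change of -0.56 (adjusted p = 0.0013 by limma). The 4 *Id* genes therefore differed in direction.

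The homeobox genes *Msx1* and *Msx2*, which take part in meiotic entry of fetal germ cells, were both higher. *Msx1* (ENSMUSG00000048450.11, chromosome 5, 37977829 to 37981927) had 3.93, 2.98 and 2.79 TPM and 19.6, 20.1 and 19.7 TPM (log2 fold change 2.31, standard error 0.119, limma adjusted p = 1.5e-06). *Msx2* had 1.58, 0.909 and 0.708 TPM and 14.2, 14.1 and 15.2 TPM (log2 fold change 2.93, standard error 0.1601, limma adjusted p = 2.2e-06). *Gata2* (ENSMUSG00000015053.15, chromosome 6, 88170873 to 88184014), a zinc finger transcription factor gene, had 1.96, 3.26 and 1.93 TPM in control and 52.7, 47.6 and 51.8 TPM in IUHG libraries (log2 fold change 3.96, standard error 0.144, limma adjusted p = 1.9e-07). *Gata3* rose to 2.22 ± 0.271 TPM (SD, n = 3) from 0.306 ± 0.126 TPM (adjusted p = 3.9e-04 by limma). *Dlx3* and *Hand1*, transcription factor genes of the placenta among other tissues, were listed at 0 in all 3 control libraries and had 3.901, 3.92 and 4.598 TPM and 2.98, 3.81 and 4.13 TPM in IUHG libraries (adjusted p = 6.4e-06 and 1.6e-05 by limma). *Cdx1* and *Cdx2*, homeobox genes of posterior and trophoblast fate, were higher at 4.01, 4.23 and 4.48 TPM and 1.33, 1.19 and 1.09 TPM in IUHG libraries, against 1.19, 1.32 and 1.74 TPM and 0.0476, 0 and 0 TPM in control.

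The ligand *Bmp4* had 26.8, 25.7 and 28.98 TPM in control and 15.4, 18.1 and 16.4 TPM in IUHG libraries (log2 fold change -0.68, standard error 0.0861, limma adjusted p = 3.7e-04), below the fold threshold. The receptor *Bmpr1a* had 9.66, 9.67 and 10.1 TPM and 13.7, 13.3 and 13.8 TPM, with a log2 fold change of 0.43 (adjusted p = 0.0038 by limma). Neither was a DEG.

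**Figure D2:**
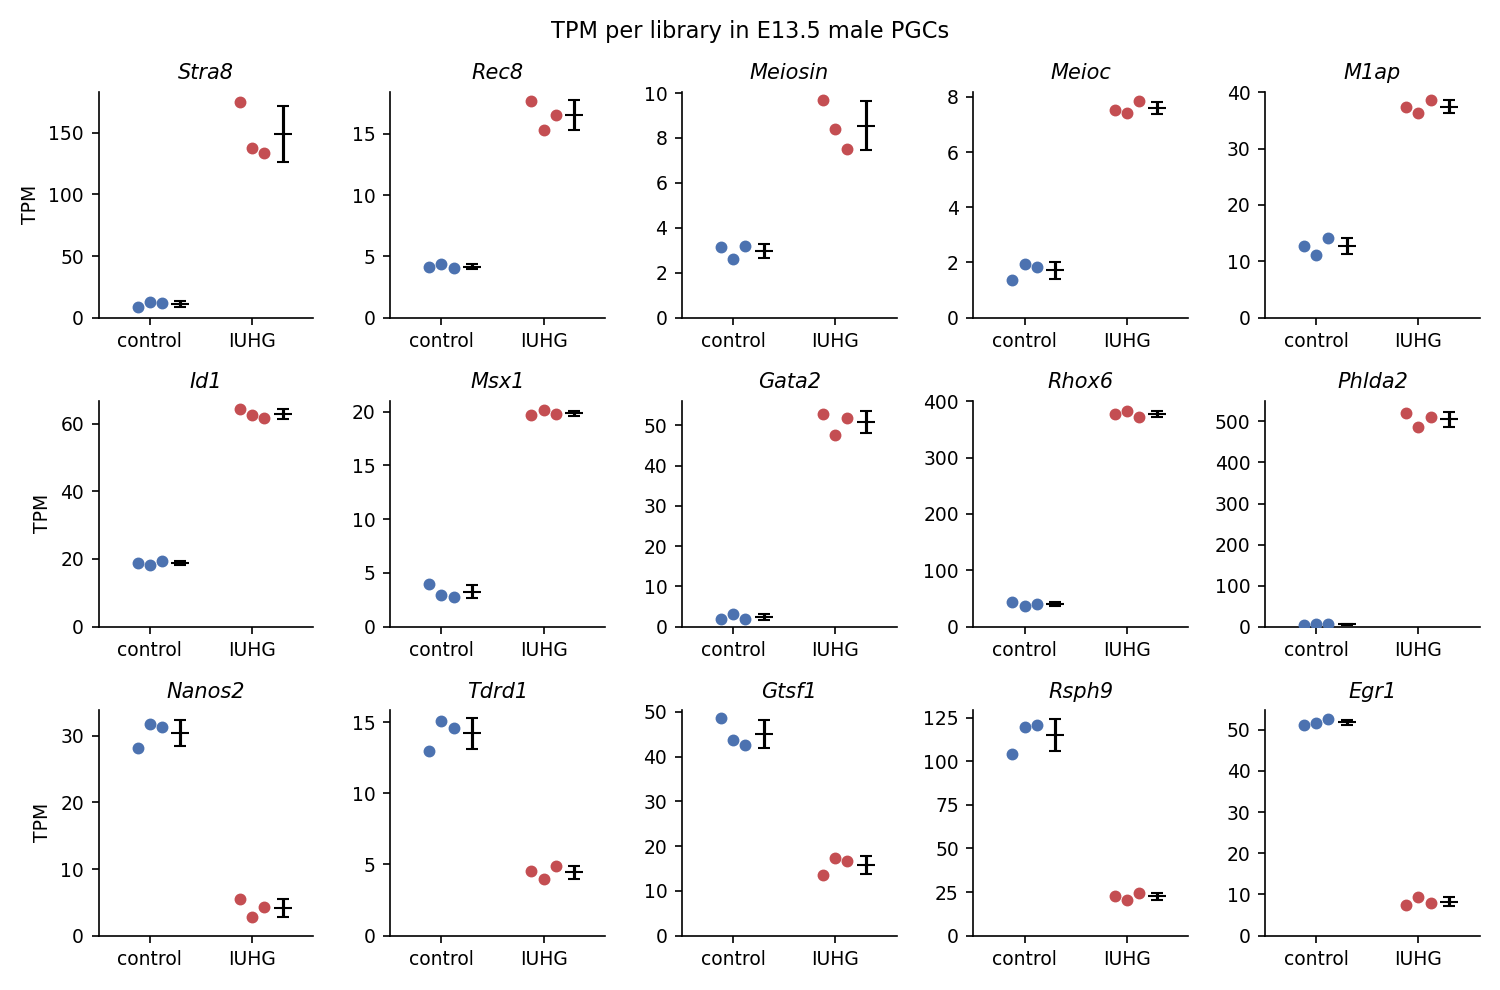
TPM of 15 genes in each of the 3 control (blue) and 3 IUHG (red) libraries, with the mean and SD in black beside the points and each y axis from 0. In all 15 panels the control and IUHG libraries do not overlap, as in all 567 DEGs. The first 10 genes are higher and the last 5 lower in IUHG.

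The regulators that start meiosis were higher in IUHG male PGCs, while *Sycp1* and *Sycp3* of the synaptonemal complex were not. Of 41 tested members of a list of 45 genes of meiotic entry and prophase, 6 were DEGs higher and 0 lower (2.03% and 1.89% of all genes), 14 were higher and 8 lower at adjusted p below 0.05 and any fold (15.2% and 18%), and the median log2 fold change was 0.14. *Stra8* (ENSMUSG00000029848.12, chromosome 6, 34897098 to 34916279), the gatekeeper of meiotic entry, had 8.73, 13.0 and 11.7 TPM in control and 175, 138 and 134 TPM in IUHG libraries (log2 fold change 3.63, standard error 0.1399, limma adjusted p = 2.7e-07). *Meiosin*, the partner of STRA8, had 3.13, 2.62 and 3.18 TPM and 9.69, 8.39 and 7.52 TPM (log2 fold change 1.26, standard error 0.130, limma adjusted p = 1.1e-04). *Rec8* (ENSMUSG00000002324.9, chromosome 14, 55855494 to 55862852), a meiotic cohesin subunit gene that responds to retinoic acid, had 4.09, 4.37 and 4.05 TPM and 17.7, 15.3 and 16.6 TPM (log2 fold change 1.76, standard error 0.0997, limma adjusted p = 2.6e-06). All 3 genes had every IUHG library above every control library, as had all 294 higher DEGs.

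*Meioc*, which germ cells need to stay in meiotic prophase, had 1.38, 1.96 and 1.82 TPM in control and 7.53, 7.42 and 7.85 TPM in IUHG libraries (log2 fold change 1.67, standard error 0.132, limma adjusted p = 2.1e-05). *M1ap*, needed for meiosis in males, had 12.8, 11.2 and 14.2 TPM and 37.3, 36.3 and 38.7 TPM (log2 fold change 1.49, standard error 0.0905, limma adjusted p = 4.1e-06). *Majin*, which ties telomeres to the nuclear membrane, had 0.797, 0.877 and 0.602 TPM and 4.396, 2.58 and 3.09 TPM (log2 fold change 1.29, standard error 0.184, limma adjusted p = 7.1e-04). In contrast *Sycp3*, of the axial elements of meiotic chromosomes, had 115, 123 and 124 TPM and 103, 107 and 111 TPM (log2 fold change -0.18, standard error 0.0528, limma adjusted p = 0.029). *Sycp1*, of the transverse filaments, had 58.5, 64.2 and 64.96 TPM and 53.3, 49.2 and 47.9 TPM (log2 fold change -0.31, standard error 0.0672, limma adjusted p = 0.0064). Neither passed the fold threshold. *Dmrtc2* had a log2 fold change of 0.68, *Ugt8a* of 0.92, *Slc25a31* of -0.71 and *Tex11* of -0.59, all under the fold threshold at limma adjusted p of 0.0049, 9.7e-04, 6.6e-05 and 7.0e-04.

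Retinoic acid binds receptors that sit as dimers on DNA, and *Stra8* and *Rec8* are among its targets. Of 13 members tested of a list of 24 genes of this pathway, 4 were DEGs higher and 1 lower (2.03% higher and 1.89% lower over all genes), with a median log2 fold change of 0.01198. At adjusted p below 0.05 and any fold, 5 were higher and 4 lower (15.2% and 18% of all genes). *Stra8*, *Rec8* and *Meiosin* were 3 of the 4 and also count in the meiotic list. The other was *Crabp1*, which encodes a binding protein that holds retinoic acid in the cytoplasm, with 76.8, 59.03 and 82.8 TPM in control and 175, 159 and 162 TPM in IUHG libraries (log2 fold change 1.18, standard error 0.108, limma adjusted p = 5.3e-05). *Aldh1a2*, an enzyme gene of retinoic acid synthesis, fell from 10.7, 11.7 and 13.7 TPM to 3.94, 5.03 and 5.85 TPM (log2 fold change -1.14, standard error 0.143, limma adjusted p = 3.4e-04). The receptors *Rarg*, *Rxra* and *Rxrb* had log2 fold changes of -0.83, -0.71 and -0.46, under the fold threshold at limma adjusted p of 9.9e-04, 0.0057 and 8.2e-04.

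Promoters of 4 of the meiotic genes are shown because these genes moved together, followed by those of *Nanos2* and *Tdrd1*, which were lower. Each is the stretch of 250 bases before the annotated start, from RefSeq on GRCm38.p6, 5′ to 3′ on the strand of the gene, with all 6 genes on the plus strand. The table lists 3 promoters for *Tdrd1*, of which the one listed first is shown, and 1 for each of the others. Capitals mark matches on either strand to the retinoid receptor half-site AGGTCA, found in 13.8% of 27025 promoters of this table, to the STRA8-MEIOSIN motif CNCCTCAG (6.39%), to the core TCCCGC bound by E2F6 (16.9%) and to the E-box CACGTG (6.05%).
Stra8 (chr6:34920698-34920947): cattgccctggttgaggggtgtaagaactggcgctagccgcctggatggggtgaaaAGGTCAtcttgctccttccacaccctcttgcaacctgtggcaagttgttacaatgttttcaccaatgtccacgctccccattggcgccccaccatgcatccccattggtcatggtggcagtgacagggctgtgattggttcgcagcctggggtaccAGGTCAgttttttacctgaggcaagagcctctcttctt
Rec8 (chr14:55617916-55618165): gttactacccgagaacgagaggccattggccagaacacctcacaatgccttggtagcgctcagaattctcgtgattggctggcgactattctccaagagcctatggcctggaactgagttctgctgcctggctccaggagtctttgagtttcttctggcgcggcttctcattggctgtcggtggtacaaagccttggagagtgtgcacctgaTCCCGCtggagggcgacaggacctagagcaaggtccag
Meioc (chr11:102665335-102665584): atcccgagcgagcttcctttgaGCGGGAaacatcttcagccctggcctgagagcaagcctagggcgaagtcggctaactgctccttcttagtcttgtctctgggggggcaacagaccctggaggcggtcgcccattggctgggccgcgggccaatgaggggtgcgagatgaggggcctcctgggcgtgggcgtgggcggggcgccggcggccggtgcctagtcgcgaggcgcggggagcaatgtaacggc
M1ap (chr6:82946672-82946921): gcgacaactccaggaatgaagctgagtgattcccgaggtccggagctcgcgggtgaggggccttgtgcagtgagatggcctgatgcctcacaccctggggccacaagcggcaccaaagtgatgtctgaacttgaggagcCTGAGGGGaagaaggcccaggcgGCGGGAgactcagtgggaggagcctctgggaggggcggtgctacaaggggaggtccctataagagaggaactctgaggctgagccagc
Nanos2 (chr7:18987274-18987523): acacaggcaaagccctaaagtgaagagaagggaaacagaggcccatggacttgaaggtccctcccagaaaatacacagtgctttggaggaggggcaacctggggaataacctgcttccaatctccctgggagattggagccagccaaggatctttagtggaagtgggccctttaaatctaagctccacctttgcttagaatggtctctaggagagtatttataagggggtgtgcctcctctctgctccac
Tdrd1 (chr19:56825959-56826208): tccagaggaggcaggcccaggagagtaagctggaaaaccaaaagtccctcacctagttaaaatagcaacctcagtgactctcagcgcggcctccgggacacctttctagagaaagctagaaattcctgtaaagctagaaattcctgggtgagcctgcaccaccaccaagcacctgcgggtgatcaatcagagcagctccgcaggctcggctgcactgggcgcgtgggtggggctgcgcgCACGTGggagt
The *Stra8* window held 2 half-sites, starting 194 and 38 bases before the start. *Rec8*, *Meioc* and *M1ap* each held 1 E2F6 core, starting 38, 228 and 88 bases before it, the last pair on the minus strand. *M1ap* also held 1 STRA8-MEIOSIN motif on the minus strand, starting 111 bases before the start, and this promoter of *Tdrd1* 1 E-box 11 bases before its start. The *Nanos2* window held none of the 4 motifs and no CG pair, where the median promoter of the table has 6 and 8.26% have none. A match describes these letters only. Only 65.99% of the higher and 67.03% of the lower DEGs have a promoter in the table, so shares over the DEGs are not given.

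The DEGs among genes of the male germ cell fate were all lower. Of 17 members tested of 19, 6 were DEGs lower and 0 higher (1.89% and 2.03% of all genes), 10 were lower and 2 higher at adjusted p below 0.05 and any fold (18% and 15.2%), and the median log2 fold change was -0.71. *Nanos2* (ENSMUSG00000051965.9, chromosome 7, 18721325 to 18722887), the RNA-binding protein gene that suppresses meiosis in the testis, had 28.2, 31.9 and 31.3 TPM in control and 5.44, 2.78 and 4.33 TPM in IUHG libraries (log2 fold change -2.63, standard error 0.1702, limma adjusted p = 6.3e-06). *Nanos3* (ENSMUSG00000056155.7, chromosome 8, 84900362 to 84903181), a relative that supports PGC survival, fell from 258, 259 and 272 TPM to 127, 128 and 132 TPM (log2 fold change -1.02, standard error 0.0459, limma adjusted p = 7.8e-07). Its change lies near the fold threshold, and it was not a DEG with FPKM, with all PGC groups in one fit or without control library 3. *Dnd1*, a partner of NANOS2, had 506, 591 and 587 TPM and 338, 338 and 350.0 TPM, a log2 fold change of -0.71 under the fold threshold (adjusted p = 3.5e-05 by limma). *Dnmt3l*, a cofactor of new DNA methylation in male germ cells, was too low to be tested, at 0.8596, 0.851 and 0.672 TPM in control and 0.151, 0.169 and 0 TPM in IUHG libraries. The summed markers of interstitial and Leydig cells moved in the same direction, and their part in these values was not tested.

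The lists of NODAL and FGF genes, whose signals act upstream of *Nanos2*, each held 1 higher DEG and 0 lower ones. With 16 genes tested in each, these counts are too small to set apart from the shares over all genes. Of 16 tested NODAL pathway genes 1 was a DEG higher and 0 lower (2.03% higher and 1.89% lower over all genes), with a median log2 fold change of 0.11. At adjusted p below 0.05 and any fold, 7 were higher and 1 lower (15.2% and 18% of all genes). The transcription factor gene *Foxh1* had 40.5, 41.7 and 38.8 TPM in control and 79.1, 83.1 and 87.2 TPM in IUHG libraries (log2 fold change 1.03, standard error 0.06099, limma adjusted p = 3.4e-06), near the fold threshold and not a DEG without control library 3 or IUHG library 3. The feedback inhibitor *Lefty2* had 163, 180.0 and 179 TPM and 271, 286 and 289 TPM, a log2 fold change of 0.69 (adjusted p = 1.7e-05 by limma), and the co-receptor *Tdgf1* 16.6, 15.5 and 14.8 TPM and 24.3, 25.3 and 23.7 TPM, a log2 fold change of 0.62 (adjusted p = 3.5e-04 by limma). Of 16 FGF pathway genes 1 was a DEG higher and 0 lower (median 0.18), and 5 were higher and 0 lower at adjusted p below 0.05. The DEG was the receptor gene *Fgfr3*, at 0.368, 0.344 and 0.256 TPM in control and 1.69, 2.38 and 2.06 TPM in IUHG libraries (log2 fold change 1.197, standard error 0.167, limma adjusted p = 6.3e-04). *Fgfr1*, another FGF receptor gene, had a log2 fold change of 0.56 and the targets *Dusp4* and *Etv5* of 0.35 and 0.26, none past the fold threshold (adjusted p = 0.0013, 0.0083 and 0.022 by limma).

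The piRNA pathway, which makes small RNAs that silence transposons in male germ cells, likewise held lower DEGs and no higher one. Of 24 members tested of 26, 6 were DEGs lower and 0 higher (1.89% and 2.03% of all genes), with a median log2 fold change of -0.49. At adjusted p below 0.05 and any fold, 14 were lower and 1 higher (18% and 15.2% of all genes). *Tdrd1*, a scaffold of the granules where piRNAs form, had 12.99, 15.1 and 14.6 TPM in control and 4.51, 3.99 and 4.87 TPM in IUHG libraries (log2 fold change -1.48, standard error 0.109, limma adjusted p = 1.4e-05). *Tdrd5*, a relative, fell from 126, 134 and 136 TPM to 58.5, 60.2 and 61.7 TPM (log2 fold change -1.12, standard error 0.0536, limma adjusted p = 1.1e-06). *Gtsf1*, which helps PIWI proteins cut their targets, fell from 48.7, 43.8 and 42.7 TPM to 13.52, 17.3 and 16.6 TPM (log2 fold change -1.46, standard error 0.0987, limma adjusted p = 7.9e-06). In these 3 genes the groups did not overlap, as in all 567 DEGs and 47.1% of all genes tested.

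*Piwil4*, the PIWI protein that directs DNA methylation in the nucleus, had 6.49, 7.58 and 8.53 TPM and 3.895, 1.89 and 2.69 TPM (log2 fold change -1.18, standard error 0.191, limma adjusted p = 0.0014). *Morc1*, which silences transposons in the same cells, fell to 10.0 ± 1.69 TPM (SD, n = 3) from 24.4 ± 1.57 TPM (adjusted p = 6.3e-05 by limma), and *Topaz1* to 1.91 ± 0.596 TPM from 5.72 ± 0.472 TPM (adjusted p = 6.5e-04 by limma). *Piwil4* was not a DEG with FPKM, without a filter on low values or without IUHG library 2. *Mael*, another gene of the pathway, had 152, 169 and 169.9 TPM and 85.5, 84.3 and 92.3 TPM, a log2 fold change of -0.898 that missed the fold threshold (adjusted p = 9.1e-06 by limma). *Tdrd5*, *Piwil4* and *Morc1* also count among the male fate genes.

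Genes of motile cilia and sperm tails included several that were lower in IUHG. Of 108 listed genes 38 passed the filter on low values, of which 8 were DEGs lower and 0 higher (1.89% and 2.03% of all genes). Regardless of fold, 19 were lower and 4 higher at adjusted p below 0.05 (18% and 15.2% of all genes). The median log2 fold change of the 38 was -0.48, and without the filter that of the list was -0.0483. *Rsph9* (ENSMUSG00000023966.9, chromosome 17, 46440197 to 46455142), of the radial spoke head, had 104, 119.7 and 121 TPM in control and 22.7, 20.3 and 24.6 TPM in IUHG libraries (log2 fold change -2.301, standard error 0.0856, limma adjusted p = 2.1e-07). *Meig1*, needed to assemble the sperm tail and also counted among the male fate genes, had 35.96, 37.2 and 36.9 TPM and 10.7, 8.23 and 8.61 TPM (log2 fold change -1.897, standard error 0.0982, limma adjusted p = 1.5e-06). The tektins *Tekt1*, *Tekt2* and *Tekt5*, filaments of the axoneme, had log2 fold changes of -1.51, -1.499 and -1.34 (adjusted p = 7.7e-05, 0.0020 and 1.6e-04 by limma). *Iqcg*, *Nme5* and *Dynlrb2* were lower at log2 fold changes of -1.16, -1.05 and -1.095 (adjusted p = 3.8e-05, 0.0039 and 0.0082 by limma). *Dynlrb2* lost its call in 9 of 13 alternatives and the count of DEGs in the list fell to 4 with all PGC groups in one fit.

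Immediate early genes, which answer growth factor and stress signals within minutes, held lower DEGs and no higher one, *Egr1* and *Fos* among them. Of 22 members tested of 23, heat shock genes included, 4 were DEGs lower and 0 higher (1.89% and 2.03% of all genes), with a median log2 fold change of -0.44. Without a fold threshold, 16 were lower and 1 higher at adjusted p below 0.05 (18% and 15.2% of all genes). *Egr1* (ENSMUSG00000038418.9, chromosome 18, 34992876 to 34998037), a zinc finger factor induced by ERK signals, had 51.2, 51.6 and 52.5 TPM in control and 7.37, 9.41 and 8.01 TPM in IUHG libraries (log2 fold change -2.52, standard error 0.0908, limma adjusted p = 1.9e-07). Its relative *Egr4*, needed for male fertility and named for its low p rather than as a member of this list, fell from 64.5, 76.6 and 73.5 TPM to 10.8, 13.8 and 11.7 TPM (log2 fold change -2.47, standard error 0.0985, limma adjusted p = 3.4e-07). *Fos*, a subunit of AP-1, fell from 91.6, 97.1 and 91.3 TPM to 45.4, 48.5 and 43.1 TPM (log2 fold change -1.02, standard error 0.0622, limma adjusted p = 4.3e-06). *Fos* lies near the fold threshold and was not a DEG after median-of-ratios scaling or quantile normalization, with FPKM, or without IUHG library 3 or control library 2. The chaperone genes *Hspa1a* and *Hspa1b* had log2 fold changes of -1.05 and -1.13 (adjusted p = 0.0010 and 6.4e-04 by limma). They are near-identical copies, so their reads may be split. With FPKM 1 member of the list was a DEG.

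**Figure D3:**
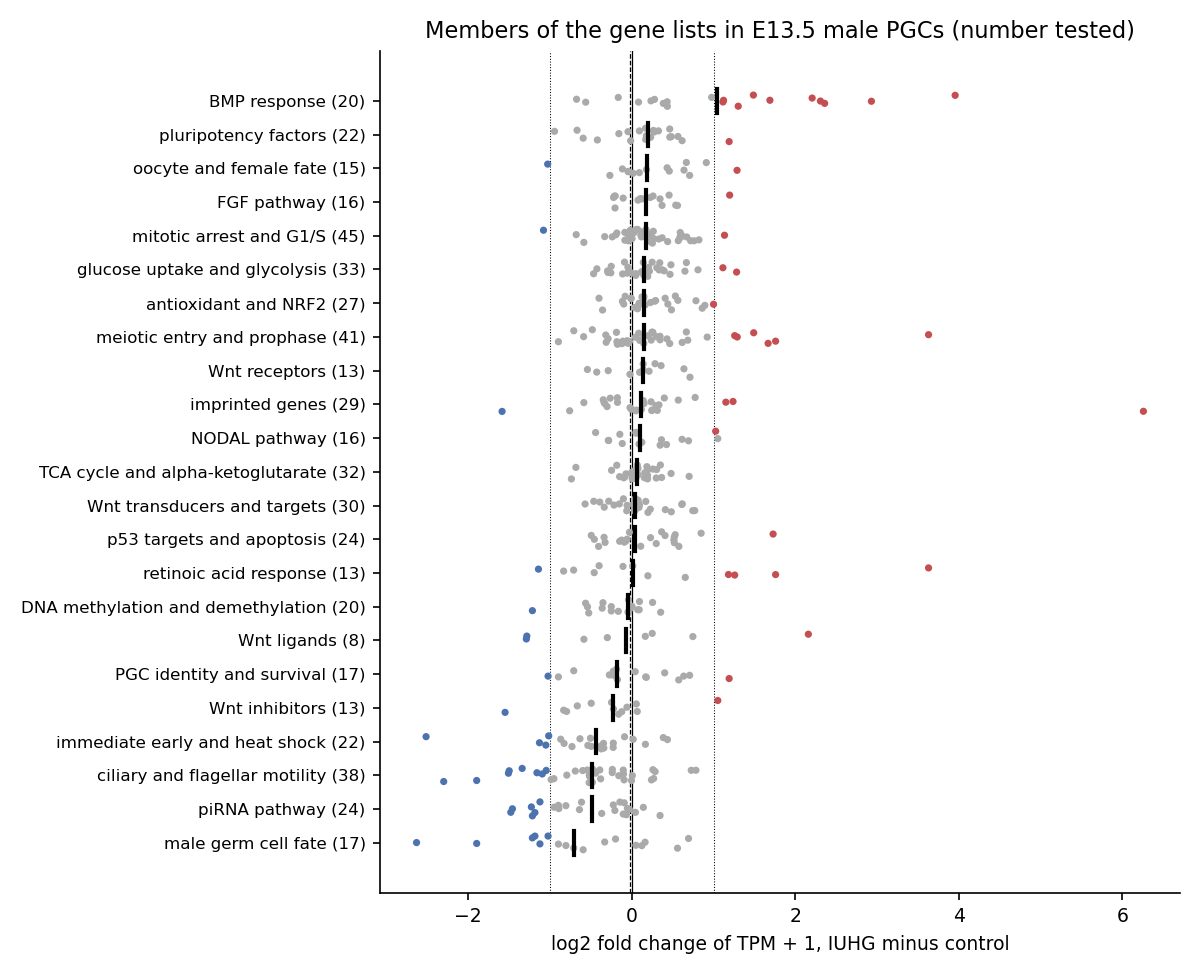
Each point is 1 tested gene of a list, by its log2 fold change of TPM + 1 (IUHG minus control) on the x axis, with lists in rows ordered by their median (black bar) and the number tested in parentheses. Red and blue mark DEGs higher and lower in IUHG, dotted lines a 2-fold change and the dashed line the median of all genes tested; BMP response genes lie highest with a median of 1.05 and male germ cell fate genes lowest with -0.71.

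Pluripotency factors, which PGCs express and later silence, held 1 DEG. Of 22 tested, 1 was a DEG higher and 0 lower (2.03% higher and 1.89% lower over all genes), with a median log2 fold change of 0.198. Regardless of fold, 8 were higher and 4 lower at adjusted p below 0.05 (15.2% and 18% of all genes). The DEG was *Tfap2c* (ENSMUSG00000028640.12, chromosome 2, 172391513 to 172400542), a PGC specification factor, with 14.2, 16.3 and 14.7 TPM in control and 34.99, 35.2 and 36.4 TPM in IUHG libraries (log2 fold change 1.19, standard error 0.0764, limma adjusted p = 6.1e-06). *Nanog* had 44.5, 50.4 and 50.6 TPM and 56.3, 53.2 and 54.3 TPM (log2 fold change 0.17, standard error 0.0675, limma adjusted p = 0.082), and *Sall4* 62.7, 67.1 and 61.2 TPM and 68.8, 71.7 and 74.7 TPM (log2 fold change 0.17, standard error 0.0601, limma adjusted p = 0.055). In both the libraries did not overlap, as in 47.1% of all genes, but neither passed the threshold. *Pou5f1*, the gene whose promoter drives the reporter, had 269, 253 and 256 TPM and 216, 235 and 246 TPM, a log2 fold change of -0.16 (adjusted p = 0.054 by limma). *Hesx1* and *Dppa4* had log2 fold changes of -0.95 and -0.59, *Tdgf1* and *Tcf7l1* of 0.62 and 0.48, and *Enpp3* of 0.23, none past the fold threshold (adjusted p = 2.3e-06, 3.1e-04, 3.5e-04, 0.0020 and 0.052 by limma).

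Among 17 genes of PGC identity and survival, 1 was a DEG higher (*Tfap2c*) and 1 lower (*Nanos3*), against 2.03% higher and 1.89% lower over all genes, with a median log2 fold change of -0.18. The receptor tyrosine kinase gene *Kit* had 23.01, 26.8 and 24.4 TPM in control and 39.4, 40.3 and 43.4 TPM in IUHG libraries, a log2 fold change of 0.71 (adjusted p = 1.5e-04 by limma). *Ifitm3*, an early PGC marker, had a log2 fold change of 0.402 (adjusted p = 1.5e-04 by limma). *Prdm1*, the master regulator of PGC fate, had 11.9, 15.6 and 16.8 TPM and 15.04, 14.8 and 15.4 TPM, with overlapping libraries. Of 15 oocyte and female fate genes tested, 1 was a DEG higher and 1 lower. At adjusted p below 0.05 and any fold, 4 were higher and 2 lower (15.2% and 18% of all genes). *Irx3*, a homeobox gene of the fetal ovary, had 0.261, 0.217 and 0.190 TPM and 2.45, 1.77 and 1.78 TPM (log2 fold change 1.29, standard error 0.171, limma adjusted p = 4.6e-04), and *Zp1*, of the egg coat, 2.52, 1.44 and 2.44 TPM and 0.313, 0.601 and 0.659 TPM (log2 fold change -1.03, standard error 0.198, limma adjusted p = 0.0037). *Sohlh2*, a germ cell transcription factor gene, had a log2 fold change of 0.67 (adjusted p = 2.1e-05 by limma) under the fold threshold. *Zp1* was not a DEG in 7 of 13 alternatives.

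WNT signals support the ovarian fate of the gonad and PGC proliferation. Over the 64 tested of 104 genes in the WNT lists, 2 were DEGs higher and 3 lower (2.03% higher and 1.89% lower over all genes), with a median log2 fold change of 0.0418. *Porcn* (ENSMUSG00000031169.14, chromosome X, 8060087 to 8072764), an X-linked acyltransferase that WNT ligands need for secretion, had 7.03, 8.02 and 5.35 TPM in control and 34.9, 33.6 and 31.97 TPM in IUHG libraries (log2 fold change 2.16, standard error 0.124, limma adjusted p = 2.8e-06). *Rspo1*, a WNT amplifier of the ovary, had 11.6, 15.7 and 14.4 TPM and 5.31, 5.98 and 4.11 TPM (log2 fold change -1.28, standard error 0.147, limma adjusted p = 2.0e-04), and *Rspo4* 2.97, 4.04 and 3.93 TPM and 0.4204, 1.69 and 0.7603 TPM (log2 fold change -1.29, standard error 0.233, limma adjusted p = 0.0026). Of the inhibitors, *Kremen2* fell from 7.25, 9.75 and 9.41 TPM to 2.11, 2.68 and 2.21 TPM (log2 fold change -1.55, standard error 0.142, limma adjusted p = 5.5e-05) and *Notum* rose from 2.79, 2.54 and 2.32 TPM to 5.68, 6.75 and 6.67 TPM (log2 fold change 1.05, standard error 0.127, limma adjusted p = 2.7e-04). The ligand *Wnt3* had 43.2, 44.4 and 42.9 TPM and 26.8, 30.5 and 28.8 TPM, a log2 fold change of -0.59 (adjusted p = 2.2e-04 by limma). None of 13 receptors and 30 transducers and targets was a DEG, where 8 of these 43 were higher and 6 lower at adjusted p below 0.05 by limma, against 15.2% and 18% of all genes. *Wnt4* was too low to be tested, at 0.638, 0.613 and 0.452 TPM and 0.554, 0.669 and 0.793 TPM.

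Genes of glucose use differed in few members. Of 33 tested, 2 were DEGs higher and 0 lower (2.03% higher and 1.89% lower over all genes), with a median log2 fold change of 0.15. Without a fold threshold, 9 were higher and 4 lower at adjusted p below 0.05 (15.2% and 18% of all genes). *Ldha*, of the lactate dehydrogenase that makes lactate, had 39.4, 41.5 and 38.9 TPM in control and 96.04, 94.7 and 105 TPM in IUHG libraries (log2 fold change 1.28, standard error 0.0617, limma adjusted p = 1.1e-06), while its partner *Ldhb* had 1932, 1956 and 1930.3 TPM and 1419, 1456 and 1452 TPM (log2 fold change -0.43, standard error 0.0335, limma adjusted p = 2.0e-05). *Hk1*, a hexokinase at the entry of glycolysis, had 4.29, 4.32 and 4.69 TPM and 9.53, 11.05 and 11.8 TPM (log2 fold change 1.11, standard error 0.113, limma adjusted p = 9.9e-05). *Gapdh*, *Pgk1* and *Aldoa* had log2 fold changes of 0.34, 0.67 and 0.33 under the fold threshold (adjusted p = 1.1e-04, 1.2e-04 and 3.9e-04 by limma).

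No gene of the TCA cycle list (32 tested, median 0.0685) was a DEG by limma, where 11 were higher and 4 lower at adjusted p below 0.05 (15.2% and 18% of all genes). *Idh2*, a mitochondrial enzyme gene, had 80.2, 93.4 and 85.7 TPM and 144, 129 and 150.4 TPM, a log2 fold change of 0.701 (adjusted p = 1.3e-04 by limma). *Ogdh* had overlapping libraries and a log2 fold change of 0.0671. Of 27 antioxidant and NRF2 genes 1 was higher (*Gpx3*, log2 fold change 1.0002, standard error 0.0841, limma adjusted p = 3.2e-05), and 10 were higher and 1 lower at adjusted p below 0.05. *Txn1*, which encodes thioredoxin, had 252, 247 and 259.5 TPM and 462, 463 and 455 TPM, a log2 fold change of 0.86 (adjusted p = 9.7e-07 by limma). *Gpx3* lost its call with FPKM and without each of 3 libraries. Of 24 p53 targets and apoptosis genes 9 were higher and 4 lower at adjusted p below 0.05. The DEG among them was the membrane protein gene *Perp*, at 1.17, 0.9205 and 0.811 TPM in control and 5.26, 5.497 and 5.76 TPM in IUHG libraries (log2 fold change 1.73, standard error 0.139, limma adjusted p = 2.3e-05).

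Male PGCs leave the cell cycle at about this stage. Of 45 tested genes of mitotic arrest and the G1/S transition, 1 was a DEG higher and 1 lower, near the 2.03% higher and 1.89% lower over all genes. At adjusted p below 0.05 and any fold, 20 were higher and 4 lower (15.2% and 18% of all genes), and the median log2 fold change was 0.17. *Ccne1* (ENSMUSG00000002068.17, chromosome 7, 37797409 to 37806959), the cyclin that drives entry into S phase, had 35.4, 35.3 and 37.01 TPM in control and 74.98, 81.4 and 83.9 TPM in IUHG libraries (log2 fold change 1.13, standard error 0.0626, limma adjusted p = 2.3e-06). *Cdk6*, a kinase of G1, fell from 9.23, 8.36 and 10.5 TPM to 3.24, 3.95 and 4.56 TPM (log2 fold change -1.08, standard error 0.136, limma adjusted p = 3.5e-04). *Cdkn1c*, a cell cycle inhibitor gene, had 139, 153 and 136 TPM and 93.1, 97.6 and 92.7 TPM, a log2 fold change of -0.59 (adjusted p = 9.2e-05 by limma), and *Gmnn*, of the replication inhibitor geminin, a log2 fold change of 0.60 (adjusted p = 2.4e-05 by limma). Neither passed the fold threshold.

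Of 20 tested genes that write, read or erase DNA methylation, 1 was a DEG lower, *Morc1* above, and 0 higher (1.89% and 2.03% of all genes), with a median log2 fold change of -0.0436. *Dnmt1*, the maintenance enzyme, had 65.1, 70.4 and 74.96 TPM in control and 66.7, 69.8 and 72.3 TPM in IUHG libraries, with overlapping libraries. *Dnmt3a*, a de novo enzyme, had 32.7, 52.4 and 30.8 TPM and 25.9, 24.4 and 26.2 TPM, a log2 fold change of -0.54 that missed both thresholds (adjusted p = 0.031 by limma). *Uhrf1*, which recruits DNMT1, had a log2 fold change of -0.53 (adjusted p = 1.9e-04 by limma), and *Tet1*, a demethylation enzyme, of -0.0463 (adjusted p = 0.71 by limma).

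Of 29 imprinted genes tested, 3 were DEGs higher and 1 lower (2.03% higher and 1.89% lower over all genes), with a median log2 fold change of 0.12. Regardless of fold, 6 were higher and 6 lower at adjusted p below 0.05 (15.2% and 18% of all genes). Besides *Phlda2*, the amino acid transporter gene *Slc38a4* had 9.15, 9.204 and 9.14 TPM in control and 21.1, 21.1 and 22.5 TPM in IUHG libraries (log2 fold change 1.15, standard error 0.0795, limma adjusted p = 9.1e-06), and the zinc finger gene *Plagl1* 0.364, 0.294 and 0.606 TPM and 2.07, 1.92 and 3.16 TPM (log2 fold change 1.24, standard error 0.191, limma adjusted p = 0.0011). *Nnat*, of the small membrane protein neuronatin, fell from 26.8, 20.8 and 18.9 TPM to 4.55, 7.27 and 8.68 TPM (log2 fold change -1.59, standard error 0.197, limma adjusted p = 3.2e-04). *H19* had 5.605, 4.36 and 6.38 TPM and 7.25, 6.27 and 7.04 TPM, with overlapping libraries and a limma adjusted p of 0.13. *Gnas* and *Snrpn* had log2 fold changes of 0.77 and 0.57 (adjusted p = 1.4e-05 and 1.4e-05 by limma), under the fold threshold.

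The same exposure was compared between E13.5M and the other PGC groups with an interaction test, which asks whether the IUHG difference itself differs. At a limma adjusted p under 0.01, 557 of 17389 genes (3.2%) differed from female PGCs of the same day (E13.5F), 414 of 15180 (2.73%) from E12.5 and 1800 of 21712 (8.29%) from E16.5M. Each is a 12-library fit, and the 3 fits share the E13.5M libraries. With any 1 of the 6 E13.5M libraries left out, 228 to 258 genes differed from E13.5F and 230 to 265 from E12.5. *Stra8* was 1832 ± 109 TPM (SD, n = 3) in control and 428 ± 88.9 TPM in IUHG E13.5F, lower under IUHG where E13.5M was higher, and its log2 differences differed by 5.75 (adjusted p = 4.9e-08 by limma). The IUHG male level of 149 ± 22.6 TPM was below both E13.5F levels. *Meiosin* differed by 4.13 (adjusted p = 8.4e-06 by limma), *Rec8* by 2.22 (adjusted p = 2.7e-05 by limma), *M1ap* by 3.42 (adjusted p = 2.4e-06 by limma) and *Dmrtc2* by 3.52 (adjusted p = 5.5e-06 by limma), all more positive in E13.5M.

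*Nanos2* in the other groups was 0.621 ± 0.397 TPM in control and 0.0808 ± 0.1399 TPM in IUHG at E12.5, 5.36 ± 1.51 and 3.104 ± 0.962 TPM in E16.5M, and at most 0.163 TPM in any E13.5F library. Control E13.5M, at 30.5 ± 1.95 TPM, was the highest of the 10 groups. The IUHG difference in E13.5M differed from that in E16.5M by -1.999 (adjusted p = 9.7e-04 by limma). *Gata2*, *Rhox9* and *Phlda2* had another order. *Phlda2* had 307 ± 26.2 TPM in control E12.5, 5.76 ± 1.65 in control E13.5M, 506 ± 18.1 in IUHG E13.5M, 72.4 ± 4.74 in control E16.5M and 619.8 ± 52.3 TPM in control E13.5F. *Rhox9* had 754 ± 6.25 TPM in control E12.5, 87.6 ± 7.57 in control and 761 ± 33.02 in IUHG E13.5M, and 18.7 ± 3.89 TPM in control E16.5M. *Gata2* had 23.9 ± 5.18, 2.38 ± 0.762, 50.7 ± 2.72 and 8.52 ± 1.49 TPM in the same order of groups. In all 3, control E13.5M was below control E12.5 and IUHG E13.5M was not.

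*Egr4* and *Nxf2* were low at E12.5 and high in control E16.5M. *Nxf2* had 0.582 ± 0.184 TPM in control E12.5, 15.8 ± 0.351 in control E13.5M, 0.757 ± 0.0849 in IUHG E13.5M and 858 ± 78.6 TPM in control E16.5M, and 1089 ± 38.3 TPM in IUHG E16.5M. *Egr4* had 1.15 ± 0.566, 71.5 ± 6.27, 12.1 ± 1.502, 217 ± 13.1 and 194 ± 5.897 TPM in the same order. *Gtsf1* had 16.9 ± 3.15, 45.05 ± 3.19, 15.8 ± 1.995, 1372 ± 102 and 1449 ± 39.4 TPM. For these 3 genes the IUHG difference in E13.5M differed from that in E16.5M by -3.602 (adjusted p = 3.8e-10 by limma), -2.32 (adjusted p = 1.8e-07 by limma) and -1.54 (adjusted p = 5.0e-06 by limma).

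**Figure D4:**
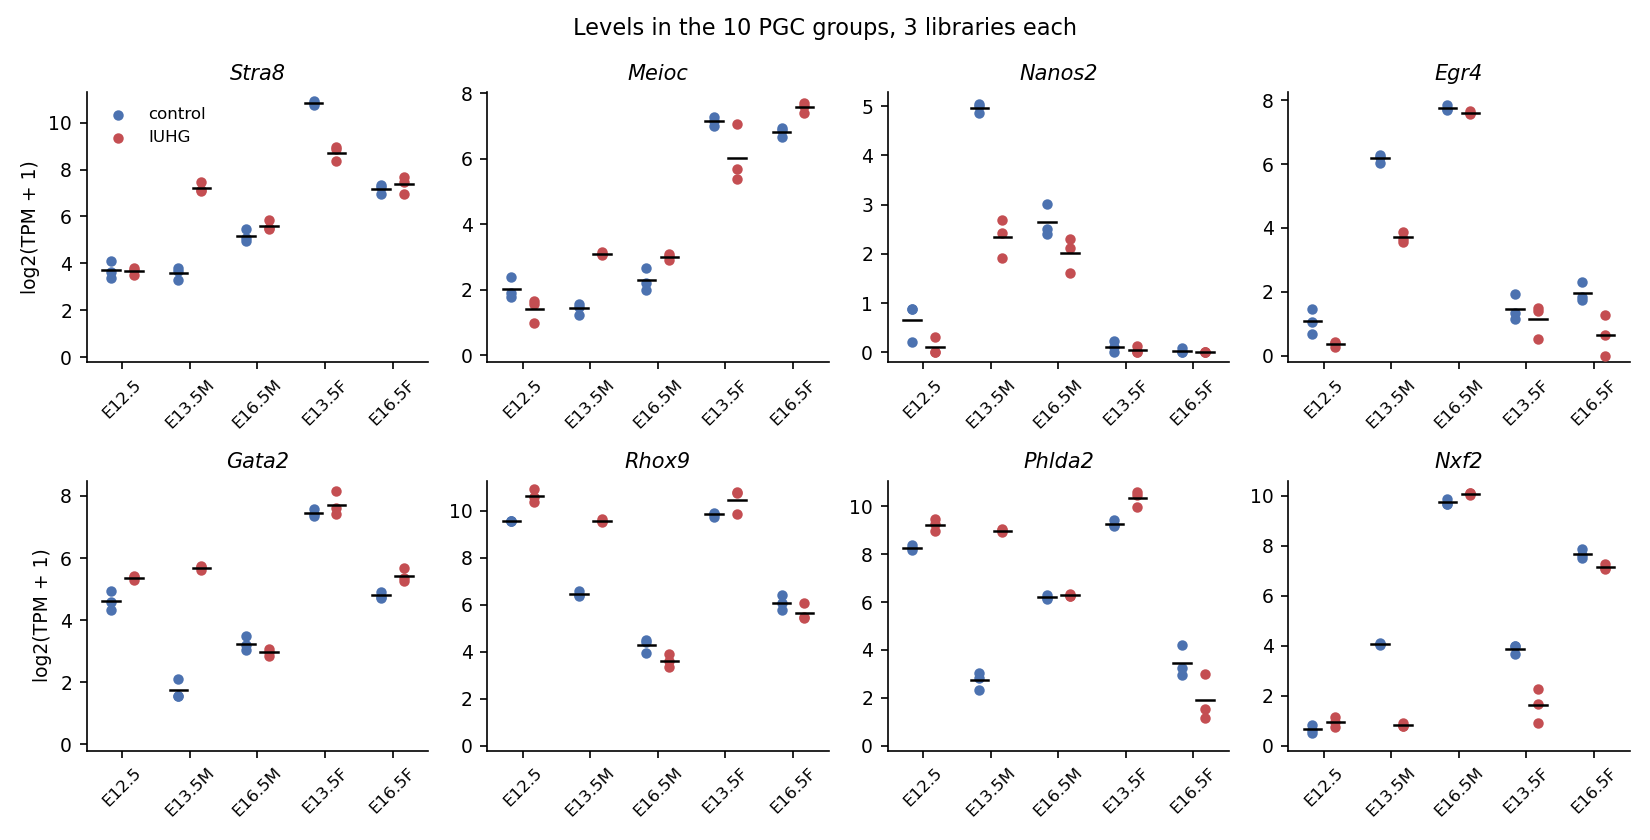
log2(TPM + 1) of 8 genes in the 10 PGC groups, with 3 libraries each as points (blue control, red IUHG) and the group mean as a bar; groups are ordered E12.5, male E13.5 and E16.5, then female E13.5 and E16.5. In E13.5M the control and IUHG points of all 8 genes stand apart, while *Nanos2* is highest in control E13.5M and *Nxf2* in E16.5M.

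In IUHG contrasts of the other PGC groups, which share no library with E13.5M, the DEGs higher in E13.5M had a median log2 fold change of 0.37 at E12.5, where 222 of 281 tested were above 0, against 0.0325 for all genes tested in both. The DEGs lower in E13.5M had a median of -0.33 there, with 124 of 170 below 0. At E16.5M the medians were -0.13 and -0.0814, against 0.05896 for all genes. In E13.5F they were 0.28 and -0.34, against 0.12. In E16.5F they were -0.00198, with 120 of 242 above 0, and -0.31, against 0.0159.

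With the DEG thresholds, few of these genes were called in the other groups, and they were called in both directions. At E12.5, where 0.123% of all genes were higher and 0.123% lower, 10 of the 281 DEGs higher in E13.5M were called higher and 2 lower, and of the 170 lower DEGs 2 were called lower and 2 higher. In E13.5F, where 0.0786% of all genes were higher and 0.435% lower, 1 of 283 higher DEGs was called higher and 9 lower, and of 185 lower DEGs 2 were called lower and 1 higher. In E16.5M, at 0.0668% and 0.134% of all genes, 2 of 266 higher DEGs were called higher and 6 lower, and of 260 lower DEGs 1 was called lower and 0 higher. In E16.5F, at 0.203% and 0.533%, 3 of 242 higher DEGs were called higher and 8 lower, and of 192 lower DEGs 9 were called lower and 2 higher. In E13.5F, E16.5M and E16.5F, 3.18%, 2.26% and 3.31% of the DEGs higher in E13.5M were called lower. The shares of the genes tested in both were 0.455%, 0.146% and 0.603%. Called higher were 0.353%, 0.752% and 1.24% of these DEGs, against 0.0954%, 0.0876% and 0.173%. Both shares of these DEGs lay above those of the genes tested in both, which also held more lower than higher calls. These differences were not tested.

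To place the DEGs among differences between control groups, they were looked up in those that contain no E13.5M library. The E12.5 titles name no sex. Y-linked markers summed to 194 to 212 TPM in control E12.5 and to at most 0.0187 TPM in control E13.5F. Stage and sex thus cannot be told apart in the difference between these groups. Between control E12.5 and E16.5M PGCs, 75.8% of the 260 lower DEGs tested there were called higher at E16.5M (95% Wilson interval 70.2 to 80.6%) and 3.08% lower. Of the genes tested in both, 26.1% were higher and 22.6% lower, and of all genes tested in that difference 41.6% and 15.7%. Their median log2 fold change from E12.5 to E16.5M was 2.35, against 0.0483 for all genes. The DEGs higher in IUHG were called higher at E16.5M in 28.03% and lower in 32.5% of 289, with a median of -0.15. Sertoli markers summed to 480 to 516 TPM in control E16.5M, against 80.8 to 86.2 TPM in control E12.5. Endothelial markers summed to 276 to 297 against 29.6 to 34.5 TPM, and blood markers to 290 to 614 against 1.09 to 4.86 TPM. Interstitial and Leydig markers, 4 of them lower DEGs, summed to 85.3 to 219 against 8.86 to 10.1 TPM. The part of these other cells in the shares was not tested.

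Between control E16.5M and E16.5F, 63.3% of the 259 lower DEGs tested were called lower in females (95% Wilson interval 57.3 to 68.96%) and 4.25% higher, against 21.1% and 29.2% of all genes. Of 277 higher DEGs 41.9% were lower and 19.9% higher in females. Between control E12.5 and E13.5F, 35.4% of the 285 higher DEGs were called higher in E13.5F (95% Wilson interval 30.1 to 41.2%) and 15.4% lower, against 16.7% and 7.42% of all genes, and of 201 lower DEGs 24.9% and 10.9%. Over all genes tested in these differences, 22.9% were higher and 28% lower in E16.5F than in E16.5M, and 18.5% and 6.87% in E13.5F than at E12.5. The intervals cover counting error over genes, which are not independent, and these shares are descriptions without a test of overlap. In control E16.5F the Sertoli, endothelial and blood markers summed to at most 94.5, 15.7 and 48.1 TPM, all below control E16.5M. The part of these cells in the shares was not tested.

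**Figure D5:**
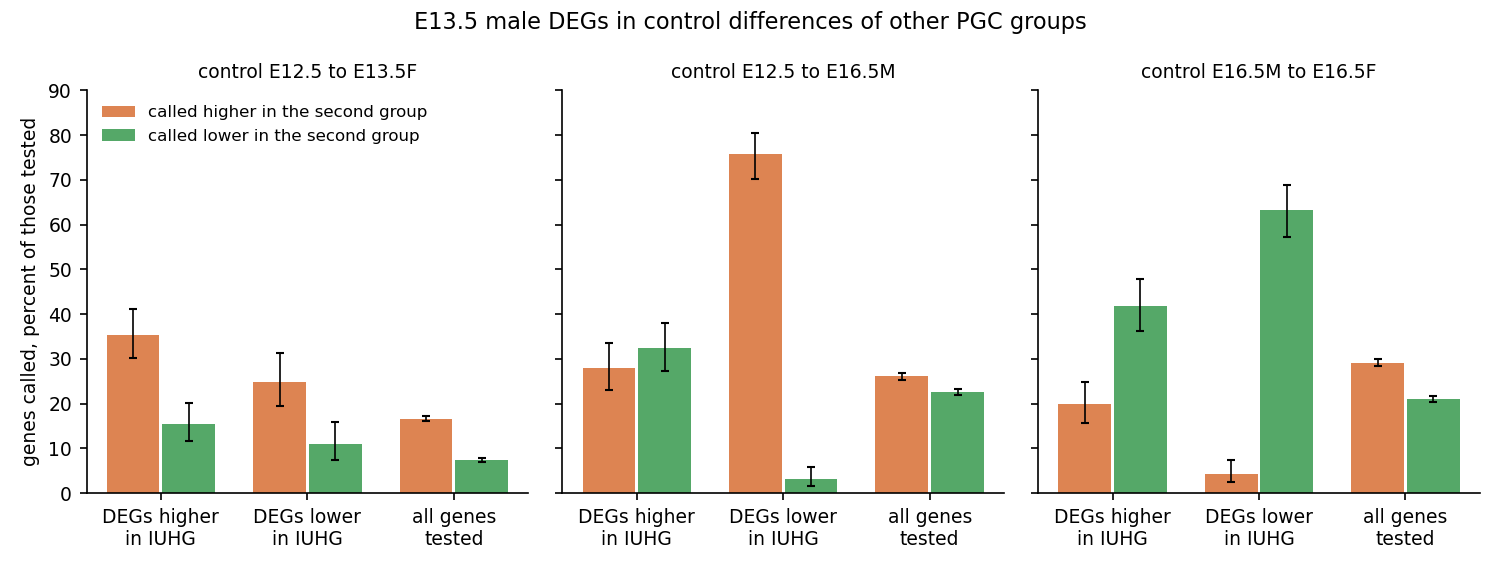
Percent of genes called higher (orange) or lower (green) in the second group of 3 control differences that hold no E13.5M library, for the DEGs higher in IUHG, the DEGs lower in IUHG and all genes tested in E13.5M; bars start at 0 and error bars are 95% Wilson intervals. The tallest bar is the 75.8% of lower DEGs that were higher in control E16.5M than in control E12.5.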

How the data were processed

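RNA-seq of sorted PGCs covered 30 libraries in 10 groups of 3, of which 6 form the comparison. The 6 gonad libraries were not used. Per the methods, the authors trimmed reads, aligned them to mm39 with STAR, kept unique hits and used DESeq2 on counts to call DEGs. What was read here are gene tables in the format of StringTie. The deposited TPM were scaled by the authors for transcript length and to 1 total per library, and the deposited FPKM for length and mapped fragments. The deposited coverage is the mean depth over the bases of a gene, and with FPKM it gave the aligned bases. Counts were not used here, so counting error is unknown.

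Rows were summed per gene ID (57126 IDs), and 791 of 798 list symbols matched. log2(TPM + 1) of genes with a mean of at least 1 TPM in either group was fitted with limma 3.58.1 in R 4.3.3 (moderated test with trend, two-sided, Benjamini-Hochberg adjustment). The methods give the fold and p thresholds of a DEG but not whether p was adjusted. An exact permutation test of 3 libraries against 3 cannot go below p = 0.1 and was not used. The steps were tested on simulated data. Libraries correlated at 0.9903 to 0.992 within and 0.972 to 0.974 between groups across genes, and none were identical.

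The members and gene lists were chosen with earlier results of these data known. Genes named are those the study names for male PGCs, the 8 DEGs per direction with the lowest p and the 5 with the largest change among those without overlap, every DEG and up to 4 further members of each list, markers, and *Rhox* genes. Tried as alternatives were FPKM, another pseudocount (0.1), 2 other scalings, no filter on low values, a joint fit of the 10 PGC groups, a replicate block, other p thresholds and leaving out each library. Promoters came from RefSeq. Other steps used Python 3.11.15.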

Additional observations from a re-analysis of the deposited data

Results flagged for a closer look

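The genes below were named by the study and had an IUHG difference in E13.5M that differed from that of another PGC group by the limma interaction test, with p adjusted over all genes of that fit. Each value is the log2 fold change in E13.5M minus that in the other group, and the tests against different groups share the E13.5M libraries.

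Against E13.5F, the difference was 5.75 (adjusted p = 4.9e-08) for *Stra8*, 3.52 (adjusted p = 5.5e-06) for *Dmrtc2* and 1.92 (adjusted p = 9.4e-06) for *Sycp3*, whose log2 fold changes in E13.5F were -2.12, -2.84 and -2.096. It was -1.42 (adjusted p = 0.0045) for *Nanog*, -1.42 (adjusted p = 0.0083) for *Dnmt3a* and -2.57 (adjusted p = 3.7e-04) for *Nanos2*, with log2 fold changes in E13.5F of 1.59 and 0.88 for *Nanog* and *Dnmt3a*, while *Nanos2* was too low to be tested there.

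Against E12.5, it was 3.65 (adjusted p = 3.3e-06) for *Stra8*, -2.07 (adjusted p = 0.0018) for *Nanos2* and 0.601 (adjusted p = 0.0040) for *Tfap2c*. Against E16.5M, it was 3.20 (adjusted p = 3.2e-06) for *Stra8*, -1.999 (adjusted p = 9.7e-04) for *Nanos2*, 0.901 (adjusted p = 1.0e-03) for *Tfap2c* and 0.72 (adjusted p = 0.0067) for *Dmrtc2*. For *Mael*, *Slc25a31* and *Sycp3* it was -1.0002 (adjusted p = 1.2e-05), -1.01 (adjusted p = 2.6e-04) and -0.37 (adjusted p = 0.0069), and for *Idh2*, *Dnmt3b* and *Dnmt3l* 0.66 (adjusted p = 0.0022), -0.58 (adjusted p = 0.0077) and -0.72 (adjusted p = 8.4e-04). *Dnmt3l* was too low to be tested in E13.5M alone, and *Nanos2* at E12.5 alone. Both passed the filter of the interaction fit through the other group of the pair. On the log2(TPM + 1) scale a gene under 1 TPM has little room to fall. The *Nanos2* values against E12.5 and E13.5F thus largely restate its log2 fold change of -2.63 in E13.5M. They cannot show whether its relative change differs between these groups.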

How the results depend on the processing

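The number of DEGs, 567 in the comparison as reported, was 321 with FPKM (179 higher, 142 lower) and 357 without a filter on low values (187 and 170). With all PGC groups in one fit 211 were higher and 181 lower. Of these, 178 higher and 141 lower DEGs with FPKM were among those reported, as were all 187 and 170 without a filter and 210 and 178 in the joint fit. A pseudocount of 0.1 gave 370 and 391, median-of-ratios scaling 294 and 258, quantile normalization 291 and 259, an adjusted p under 0.05 588 in all, and an unadjusted p under 0.01 308 and 279. Leaving out each library gave 511 to 563 DEGs, 259 to 286 higher and 249 to 287 lower. Of 78 DEGs named by rule, 49 kept their call in every alternative in which they were tested, and none changed sign. A gene that missed the filter of an alternative was not counted as lost there. The lower DEGs of the cilia list, 8 as reported, were 4 in the joint fit and 5 without a filter, and those of the immediate early list, 4 as reported, 1 with FPKM. The share of lower DEGs called higher from control E12.5 to E16.5M was 69.2% with median-of-ratios scaling. Leaving out each E13.5M library gave 228 to 258 interactions against E13.5F, 230 to 265 against E12.5 and 1220 to 1536 against E16.5M. The cause of these shifts was not tested. With the replicate number as a block, 289 genes were higher and 268 lower, and interactions numbered 296 against E13.5F, 225 against E12.5 and 1033 against E16.5M. Deviations of same-numbered libraries correlated at 0.0201, 0.0666 and 0.0998 across genes, so the numbers are not shown to pair the libraries. Depth per gene is unknown, and 3 libraries per group limit the precision.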

Other observations

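Of 536 X-linked genes tested, 29 were higher and 20 lower in IUHG, or 9.14%, against 3.72% of 13937 other genes, and on single autosomes the share ranged from 2% (chromosome 13) to 5.33% (chromosome 15). Without the 25 *Rhox* genes, 18 of 511 X-linked genes were higher and 19 lower (7.24%). The median log2 fold change was 0.0993 for these X-linked genes and -0.0269 for genes elsewhere. This was looked at after the values were seen, and no test was run. Of 325 tested genes with a symbol of a pseudogene or related sequence, 10 were higher and 6 lower (4.92%), and of 2042 predicted genes named Gm with a number 38 were higher and 38 lower (3.72%).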
